A study of Homo sapiens with 14 samples.

Results

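A375 melanoma cells that overexpressed FOXD1 were compared with A375 cells that carried the empty vector, on 3 and 2 arrays. The contrast covers 5 of the 14 arrays of a study that also silenced FOXD1 in a second melanoma line, WM266-4. A375 is an established human melanoma cell line with a BRAF mutation, and both groups were grown in the same culture medium. The overexpression group received the FOXD1 plasmid and the vector group its empty backbone. The labels speak of transfection in one field and of transduction in another. The labels do not say whether the arrays of a group came from separate cultures. Nor do they say whether the cells were selected or whether each group was 1 clone, so the p-values measure the spread between arrays. Unless stated, that spread was estimated over all 14 arrays, those of WM266-4 included, also where 1 array was left out. Total RNA was read on Illumina bead arrays, and the deposited log2 values were analysed for every named gene that was detected (detection p under 0.05) on at least 2 of the 5 arrays. This left 13056 genes, out of 20043 genes with a named probe. The study's title ties FOXD1 to dedifferentiation, vemurafenib resistance and CTGF, whose present symbol is CCN2.

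FOXD1 is a forkhead transcription factor that takes part in the development of the kidney stroma and the retina, and forkhead factors bind DNA through a winged-helix domain. Melanoma cells move between a pigmented, melanocytic state driven by MITF and SOX10 and a dedifferentiated, invasive state marked by AXL, matrix genes and loss of pigment genes. CCN2 is a secreted matricellular protein and a well known target of the YAP and TAZ coactivators, which bind DNA through TEAD factors.

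The arrays correlated with each other at 0.976 to 0.992 over all probes, and 46.0% to 48.0% of probes were detected per array. In the first principal component, which held 55.0% of the variance, the vector arrays lay at -17.3 and -26.4 and the overexpression arrays at 10.1, 13.8 and 19.7. In the second, which held 26.9%, overexpression replicate 3 lay at 21.4 and overexpression replicates 1 and 2 at -13.8 and -12.6, so that replicate 3 stood apart from its own group. Of 9 melanocyte lineage markers, DCT matched no named probe, 7 were detected on all 5 arrays and PAX3 on 4. SOX10, the neural crest factor that sustains the melanocyte lineage, had log2 values of 11.72 and 11.97 with vector and 11.77, 12.03 and 11.75 with FOXD1. The markers KRT1, DSG3 and SFN of keratinocytes, PDGFRA, THY1 and DPT of fibroblasts, PTPRC, CD3E and CD3D of leukocytes and CDH5, CLDN5 and EMCN of endothelium were detected on none of the 5 arrays. Other members of those lists were detected on all 5, namely KRT10 at 9.38 to 10.03, COL1A2 at 9.63 to 11.66, FAP at 8.31 to 8.85, CD68 at 8.20 to 9.56, VWF at 6.56 to 7.09 and CD14 at 6.88 to 8.28. The part of other cell types in the results was not tested.

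FOXD1 itself was read at log2 values of 7.86 and 7.84 with vector and of 8.0, 8.17 and 8.30 with overexpression. All 3 overexpression arrays were above both vector arrays, but the difference was small. It came to 0.31 ± 0.106 (SE, limma), 1.24-fold, and did not pass the threshold (adjusted p = 0.0693, and 0.21 in a fit of the A375 arrays alone). Without overexpression replicate 1 it passed, with an adjusted p of 0.0338. Neither the files nor the labels say whether the part of the transcript that the probe reads is carried by the plasmid, so the probe may not count the introduced RNA and the overexpression labels were not tested by it.

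CCN2 had log2 values of 7.72 and 7.23 with vector and of 8.85, 9.55 and 9.94 with FOXD1. The lowest overexpression array was more than 1 above the higher vector array. CCN2 rose 3.92-fold (log2 change 1.97 ± 0.234 SE, limma adjusted p = 0.000143). It passed the test whichever of the 5 arrays was left out, with adjusted p-values up to 0.00803, and in the A375 arrays alone at an adjusted p of 0.0136. Its sister gene CCN1, also a YAP and TAZ target, was read at 7.08 and 6.57 with vector and at 6.83, 6.95 and 7.72 with FOXD1, and the groups overlapped (adjusted p = 0.406). CCN1 was picked for this comparison after its values were seen. The promoter of CCN2, 250 bases before and 50 after the transcript start in RefSeq (GRCh38.p14, chr6:131951323-131951622, minus strand), is shown because the gene is the one the study's title names, and its capitals mark the TEAD core CATTCC, read here on the other strand as GGAATG.
CCN2: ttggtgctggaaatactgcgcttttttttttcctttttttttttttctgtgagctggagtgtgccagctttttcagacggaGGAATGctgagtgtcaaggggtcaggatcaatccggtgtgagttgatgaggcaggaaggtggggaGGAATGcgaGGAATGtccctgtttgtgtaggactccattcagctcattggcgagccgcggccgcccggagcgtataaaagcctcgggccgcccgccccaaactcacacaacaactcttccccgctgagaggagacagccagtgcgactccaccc
The window holds 3 copies of that core and none of the forkhead core TAAACA on either strand. The TEAD core lies in the promoters of 10.8% of the 10423 tested genes with a RefSeq promoter and of 10.8% of the genes that rose. The forkhead core lies in 7.39% of the tested genes' promoters, in 8.88% of those of genes that rose and in 4.59% of those of genes that fell. These are matches of letters in a short window, and binding was not measured. Forkhead sites were searched in this spelling alone, so their absence from the CCN2 window does not cover other spellings.

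Over all genes, 1708 of 13056 (13.1%) passed the test at an adjusted p under 0.05 when the spread was estimated over all 14 arrays. Of these, 881 rose (6.75% of all genes) and 827 fell (6.33%), and 151 changed at least 2-fold, 100 upward and 51 downward. When the spread was estimated from the 5 A375 arrays alone, 562 genes passed (4.3%), 288 upward (2.21%) and 274 downward (2.1%), and 542 of them were called the same way in both. Counts of called list members below stand against these shares, in either fit. The 2 vector arrays limit the precision. In the A375 arrays alone, leaving out overexpression replicate 1, 2 or 3 gave 275, 0 and 1570 calls by limma. CCN2 was thus not called there without overexpression replicate 2, where 2200 genes had an unadjusted p under 0.05. Nor did its call hold there without either vector array, where 1 vector array remained and the spread came from the overexpression arrays alone. The counts given next, and the leave-one-out results for single genes and lists, are from the fit of all 14 arrays. There the WM266-4 arrays still entered the spread. Without vector replicate 2 only 390 genes were called and 1338 of the 1708 lost their call, while without vector replicate 1 the count was 1427 and 622 lost it. A core of 292 genes, 157 higher and 135 lower, was called whichever array was left out.

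**Figure D1:**
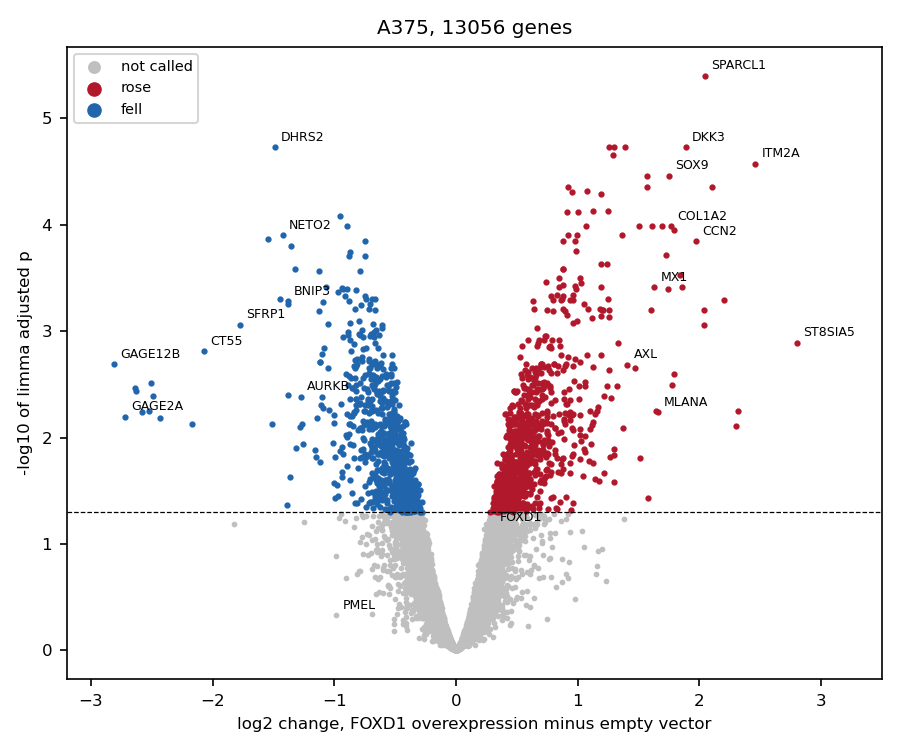
The log2 change with FOXD1 overexpression is plotted against minus log10 of limma's adjusted p for the 13056 genes tested, with genes that rose in red, genes that fell in blue and the 0.05 threshold dashed. CCN2, SPARCL1, ITM2A and SOX9 lie far to the upper right, the GAGE genes far to the left at moderate p-values, and FOXD1 just under the threshold.

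The 15 strongest rises were ST8SIA5, ITM2A, NTM, COL8A1, SORBS2, KIF5C, SPARCL1, PTPRF, ITIH6, CCN2, DKK3, MATN2, CTSK, RFTN2 and ACTA2. ST8SIA5, a sialyltransferase that builds complex gangliosides, had values of 8.20 and 7.38 with vector and of 10.09, 10.27 and 11.41 with FOXD1. It had the highest fold of the group, 6.96 with an SE of 0.449 in log2 units and a limma adjusted p of 0.00128, and its 3 overexpression arrays lay far above both vector arrays. ITM2A, a transmembrane protein of the BRICHOS family, went from 7.64 and 7.16 to 9.45, 9.90 and 10.22, a rise of 5.49-fold (adjusted p = 2.66e-05). SPARCL1, an anti-adhesive matrix glycoprotein related to SPARC, had the lowest adjusted p of the 15, 3.97e-06. Its log2 values were 7.77 and 7.29 with vector and 9.69, 9.73 and 9.31 with FOXD1, a 4.13-fold rise with little spread among the overexpression arrays.

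KIF5C, a neuronal kinesin heavy chain, rose 4.29-fold from 7.99 and 7.41 to 9.54, 9.70 and 10.16. SORBS2, an adaptor of actin stress fibres and cell junctions, rose 4.61-fold from 7.52 and 7.42 to 9.17, 9.77 and 10.08. In both genes the lowest overexpression array was more than 1 above the higher vector array. DKK3, a secreted member of the Dickkopf family, rose 3.70-fold from 9.04 and 8.91 to 10.72, 10.66 and 11.21 (adjusted p = 1.85e-05). CTSK, a collagen-degrading cysteine protease, rose 3.58-fold from 8.37 and 8.68 to 10.43, 10.18 and 10.48, and MATN2, a filament-forming matrix adaptor, rose 3.61-fold from 8.69 and 8.03 to 9.80, 10.24 and 10.60. NTM, a neural adhesion molecule of the immunoglobulin family, and COL8A1, a short-chain collagen, rose 4.97-fold and 4.92-fold, with overexpression replicate 3 highest at 10.70 and 10.02. ACTA2, the smooth muscle actin of contractile cells, rose 3.45-fold from 10.13 and 9.50 to 11.93, 11.66 and 11.22. Without vector replicate 2 the calls of NTM, COL8A1 and ACTA2 were lost (adjusted p of 0.0911, 0.0791 and 0.0634), and the other 12 kept theirs whichever array was left out. NTM was also not called in the A375 arrays alone (adjusted p = 0.0612).

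**Figure D2:**
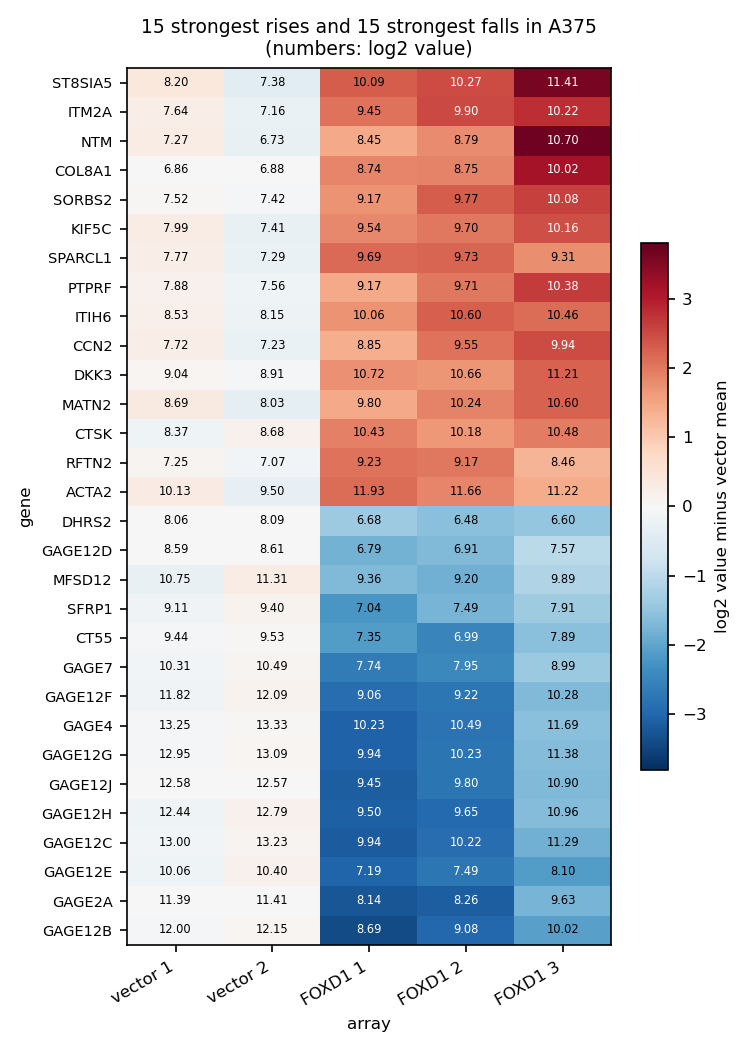
Each row is one of the 15 strongest rises or 15 strongest falls and each column an array of A375, coloured by the log2 value minus the mean of the vector arrays and labelled with the log2 value itself. Vector and overexpression arrays do not overlap in any row, and in the GAGE rows overexpression replicate 3 lies between the vector arrays and replicates 1 and 2.

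The 15 strongest falls included 11 GAGE genes, X-linked cancer-testis antigens that are silent in most normal tissues outside the testis and often switched on in melanoma. GAGE12B had values of 12.00 and 12.15 with vector and of 8.69, 9.08 and 10.02 with FOXD1, a 7.02-fold fall (log2 SE 0.481, limma adjusted p = 0.00204). GAGE2A went from 11.39 and 11.41 to 8.14, 8.26 and 9.63, a 6.60-fold fall (adjusted p = 0.00636). In both genes overexpression replicate 3 was lower than vector and higher than replicates 1 and 2. The GAGE genes are near-identical copies, so their probes cannot be taken as separate genes and the fall counts once. The promoters of GAGE12B (chrX:49340914-49341213, plus strand) and GAGE2A (chrX:49589246-49589545, plus strand) are shown to make that likeness plain, with capitals at the only base that differs where the windows overlap.
GAGE12B: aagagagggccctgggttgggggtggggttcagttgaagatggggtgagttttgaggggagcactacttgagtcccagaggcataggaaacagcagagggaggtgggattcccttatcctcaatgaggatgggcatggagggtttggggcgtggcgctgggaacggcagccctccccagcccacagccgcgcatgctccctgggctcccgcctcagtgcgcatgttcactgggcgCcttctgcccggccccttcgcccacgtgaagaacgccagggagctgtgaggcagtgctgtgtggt
GAGE2A: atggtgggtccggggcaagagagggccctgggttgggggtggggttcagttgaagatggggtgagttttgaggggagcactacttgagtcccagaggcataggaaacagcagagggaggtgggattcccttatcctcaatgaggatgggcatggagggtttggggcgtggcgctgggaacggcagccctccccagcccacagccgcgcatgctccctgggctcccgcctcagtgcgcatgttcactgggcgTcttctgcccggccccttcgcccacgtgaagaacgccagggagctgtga
They match at 283 of 284 compared bases (99.6%). The more distant GAGE10, whose promoter matches at 68.2%, was near background at 6.70 and 6.64 with vector and 6.48, 6.37 and 6.63 with FOXD1, and was not called (adjusted p = 0.35). Without vector replicate 2, GAGE12B and GAGE12G kept their calls (adjusted p of 0.0378 and 0.0477), and the other 9 lost them, with adjusted p-values from 0.057 to 0.0882. All 11 were called in the A375 arrays alone, where the highest adjusted p of the 15 genes was 0.0137. Not all cancer-testis antigens fell. Of 17 tested genes in a list of them 1 rose and 4 fell, against 6.75% and 6.33% of all genes, and 7 were higher and 10 lower on average. In the A375 arrays alone 1 of the 17 rose and 2 fell.

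The other strong falls were CT55, SFRP1, MFSD12 and DHRS2, all called whichever array was left out. CT55, another cancer-testis antigen of the X chromosome, fell 4.21-fold from 9.44 and 9.53 to 7.35, 6.99 and 7.89. SFRP1, a secreted Wnt antagonist, fell 3.42-fold from 9.11 and 9.40 to 7.04, 7.49 and 7.91 (limma adjusted p = 0.000868). MFSD12, a melanosome and lysosome membrane protein needed for red pigment, fell 2.92-fold from 10.75 and 11.31 to 9.36, 9.20 and 9.89. The groups stayed more than 0.8 apart in each of these genes. DHRS2, a mitochondrial and nuclear short-chain dehydrogenase, had values of 8.06 and 8.09 with vector and of 6.68, 6.48 and 6.60 with FOXD1, where it was detected on 1 of 3 arrays. The fitted fall was 2.81-fold, and since 2 of the 3 overexpression arrays were not above background its size is not resolved. Next in order, named after their values were seen, PYGB (brain glycogen phosphorylase), NETO2 (a kainate receptor auxiliary subunit) and PLIN2 (a lipid droplet coat protein) fell 2.73-fold, 2.68-fold and 2.60-fold. All 3 kept their calls whichever array was left out, with adjusted p-values up to 0.0224.

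Among genes of the extracellular matrix and its receptors all calls were upward. Of 23 tested matrix genes and collagens, 9 rose and none fell, against 6.75% of all genes, and the median log2 change was 0.64 against 0.00 over all genes. COL1A2, a chain of type I collagen, rose 3.40-fold from 9.63 and 9.83 to 11.66, 11.61 and 11.21 (limma adjusted p = 0.000103). COL12A1, a fibril-associated collagen, rose 1.95-fold from 6.82 and 6.65 to 7.33, 7.90 and 7.86. LAMB1, a laminin chain of basement membranes, rose 1.71-fold from 10.03 and 10.22 to 10.63, 11.00 and 11.07. In these 3 genes the groups did not overlap, and each call held whichever array was left out. BGN, a small leucine-rich proteoglycan, rose 3.12-fold and SPARC, a collagen-binding glycoprotein, 1.84-fold, but both lost their calls without vector replicate 2 (adjusted p of 0.0534 and 0.0834). COL6A2, COL18A1, LAMC1 and VCAN also rose, by 1.48-fold to 1.78-fold. Their calls were lost without vector replicate 2, where the adjusted p was 0.0926, 0.338, 0.143 and 0.18 in that order. COL6A2, COL18A1 and LAMC1 lost theirs without vector replicate 1 too, and COL6A2 and COL18A1 without overexpression replicate 2 or 3, with adjusted p-values up to 0.297, 0.338 and 0.143. The list's count was 3 of 23 without vector replicate 2, 12 without overexpression replicate 1 and 5 in the A375 arrays alone.

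Of the 3 fibroblast markers that could be tested, COL1A2 alone was called. COL1A1 and COL3A1 were detected on 1 array each and stayed between 6.28 and 6.79 on all 5. The summed linear signal of the 10 fibroblast markers was 1876 to 2070 with vector and 3400 to 4328 with FOXD1, carried by COL1A2. PDGFRA, THY1 and DPT were at background on every array, while LUM was detected on 4 arrays and FAP on all 5, at 8.49 and 8.81 with vector and 8.59, 8.85 and 8.31 with FOXD1. Among leukocyte markers CD14, a lipopolysaccharide co-receptor, rose 1.95-fold from 6.88 and 6.96 to 8.08, 8.28 and 7.28, and its call was lost without vector replicate 2 (adjusted p = 0.0572). CD68, a lysosomal protein of macrophages, was read at 8.58 and 8.93 with vector and at 9.25, 9.56 and 8.20 with FOXD1, and FCER1G at 6.57 and 7.03 and at 7.73, 6.85 and 6.22, with overlap in both genes. PTPRC, CD3E and CD3D were at background.

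Of 19 integrins and cadherins, 5 rose and none fell (median 0.37), against 6.75% of all genes that rose. On average 18 of the 19 were higher with FOXD1, against 6569 of all 13056 genes. MCAM, the melanoma cell adhesion molecule, rose 1.75-fold from 8.29 and 8.34 to 8.99, 9.37 and 9.00 and kept its call whichever array was left out. ITGAV and ITGB1, chains of receptors for vitronectin, fibronectin and collagen, rose 1.68-fold and 1.40-fold, and lost their calls without vector replicate 1 (adjusted p of 0.074 and 0.173), ITGB1 also without overexpression replicate 1. Against 6.75% of all genes, 6 of 19 matrix proteases and inhibitors rose and none fell (median 0.345). They were CTSK, CST1, PLAT, MMP16, ADAM12 and TIMP2, of which CTSK alone kept its call without vector replicate 2. There the other 5 had adjusted p-values of 0.148, 0.125, 0.0812, 0.119 and 0.0524. CST1, PLAT, ADAM12 and TIMP2 lost theirs without vector replicate 1 as well and without at least 1 overexpression array, with adjusted p-values up to 0.148, 0.125, 0.232 and 0.231. PLAT, the tissue plasminogen activator, was read at 10.51 and 10.63 with vector and at 11.29, 11.40 and 12.16 with FOXD1. MMP16, a membrane-bound matrix metalloproteinase, was read at 8.20 and 8.08 with vector and at 8.85, 9.08 and 9.34 with FOXD1, again without overlap. Without overexpression replicate 3, 5 of the 19 matrix proteases and inhibitors rose and 1 fell.

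Of 14 tested genes of the undifferentiated, invasive melanoma state, 4 rose and none fell (median 0.157), against 6.75% of all genes that rose. SOX9, a neural crest factor that counters SOX10 in melanoma, rose 3.37-fold from 7.46 and 7.33 to 9.21, 9.54 and 8.69 (limma adjusted p = 3.44e-05). POU3F2, known as BRN2, a factor of invasive melanoma cells, rose 1.68-fold from 8.50 and 8.59 to 9.06, 9.18 and 9.63. Both kept their calls whichever array was left out. AXL, a receptor tyrosine kinase of drug-tolerant melanoma cells, rose 2.65-fold from 8.47 and 7.75 to 9.17, 9.66 and 9.72. NT5E, the ectonucleotidase CD73, rose 2.16-fold from 8.39 and 8.78 to 9.53, 9.63 and 9.93. The groups did not overlap in either gene, yet both calls were lost without vector replicate 2 (adjusted p of 0.0599 and 0.0515), and that of NT5E also without vector replicate 1 (0.0979). Of 20 YAP, TAZ and TEAD targets, 5 rose and none fell, against 6.75% of all genes that rose, with a median of 0.08. The 5 were CCN2, AXL, NT5E, MYOF and RBMS3, 3 of them outside the undifferentiated list. RBMS3, an RNA-binding protein, rose 1.82-fold from 8.14 and 8.42 to 8.94, 9.38 and 9.12 and kept its call whichever array was left out, while MYOF, a membrane repair ferlin, lost its call without vector replicate 2 (adjusted p = 0.0579). ANKRD1, another widely used target, was not among the genes detected on 2 or more of the arrays.

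Of 23 melanocytic and pigment genes, 2 rose and 2 fell, with a median of -0.04. These counts are near the shares over all genes, of which 6.75% rose and 6.33% fell. MLANA, a melanosome antigen, rose 3.15-fold and TYR, the rate-limiting enzyme of melanin synthesis, 1.41-fold. RAB27A and GPR143, a melanosome transport GTPase and a melanosome receptor, fell 1.84-fold and 1.73-fold. All 4 calls were lost without vector replicate 2 (adjusted p of 0.11, 0.142, 0.101 and 0.178). The A375 arrays alone gave no call by limma among the 23 genes, with 6 at an unadjusted p under 0.05. MITF was read at 10.01 and 10.37 with vector and at 10.09, 10.47 and 9.60 with FOXD1, with overlap between the groups and no call (adjusted p = 0.743). The count of the next list stands against the same 6.75% of all genes that rose, and without overexpression replicate 1 it was 4 rises and 1 fall. Of 18 mesenchymal and contractile genes 5 rose and none fell, namely ACTA2, TPM2, ZEB2, LMNA and CNN2, and without vector replicate 2 limma called none of the 18 (3 at an unadjusted p under 0.05). There TPM2, ZEB2, LMNA and CNN2 had adjusted p-values of 0.179, 0.213, 0.42 and 0.364, and each of these 4 also lost its call without at least 1 other array.

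Calls among interferon-induced genes were upward too. Of 22 tested, 8 rose and none fell, against 6.75% of all genes that rose, with a median log2 change of 0.43. On average 20 of the 22 were higher, against 6569 of all 13056 genes. MX1, an antiviral dynamin-like GTPase, rose 3.09-fold from 8.71 and 8.23 to 10.18, 10.36 and 9.75 (limma adjusted p = 0.000386). IFIT2, a protein that binds viral RNA, rose 2.57-fold from 8.98 and 8.76 to 10.18, 10.25 and 10.26. MX2, which blocks retroviral entry to the nucleus, rose 2.29-fold from 8.41 and 8.17 to 9.14, 9.46 and 9.86. The groups did not overlap, and the 3 calls held whichever array was left out. IFIT3, a partner of IFIT2, rose 1.85-fold from 8.19 and 8.45 to 9.23, 9.20 and 9.20 and lost its call without vector replicate 1 (adjusted p = 0.0613). The list's count was 4 without vector replicate 2, 11 without overexpression replicate 3 and 7 in the A375 arrays alone. Its median was 0.58 in overexpression replicates 1 and 2 and 0.24 in replicate 3. RefSeq promoters of MX1 (chr21:41420308-41420607, plus strand) and IFIT3 (chr10:89327747-89328046, plus strand), the first of several listed for each gene, are shown for the interferon-stimulated response element, searched on both strands as GAAA, any 2 bases and GAAA again and marked in capitals.
MX1: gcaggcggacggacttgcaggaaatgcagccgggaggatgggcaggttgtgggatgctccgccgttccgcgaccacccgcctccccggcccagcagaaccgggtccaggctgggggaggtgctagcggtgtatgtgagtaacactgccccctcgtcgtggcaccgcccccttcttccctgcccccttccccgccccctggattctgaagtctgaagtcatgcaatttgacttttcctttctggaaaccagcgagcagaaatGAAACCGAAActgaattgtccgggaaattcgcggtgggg
IFIT3: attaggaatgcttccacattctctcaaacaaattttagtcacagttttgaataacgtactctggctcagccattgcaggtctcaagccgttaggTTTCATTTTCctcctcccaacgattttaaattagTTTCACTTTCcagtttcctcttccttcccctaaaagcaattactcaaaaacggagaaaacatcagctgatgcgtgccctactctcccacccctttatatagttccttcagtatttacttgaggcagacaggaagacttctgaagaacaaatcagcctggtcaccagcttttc
The element lies in 4 of the 5 called interferon-induced genes with a promoter sequence and in 3.03% of the tested genes. Against 6.75% of all genes, 4 of 17 antigen presentation genes rose and none fell (B2M, TAP1, HLA-DMA and HLA-DMB). Each lost its call when 1 array was left out, B2M without vector replicate 1 or overexpression replicate 1, TAP1 without vector replicate 2 or overexpression replicate 1 or 2, and HLA-DMA and HLA-DMB without vector replicate 2, with adjusted p-values up to 0.155, 0.284, 0.236 and 0.105. In the A375 arrays alone limma called 0 of the 17, with 5 at an unadjusted p under 0.05.

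Calls among genes of DNA replication and cell division were all downward. Of 18 tested S phase genes, 10 fell and none rose, against 6.33% of all genes that fell, with a median log2 change of -0.41, and 17 of 18 were lower on average. MCM6, a subunit of the replicative helicase, fell 1.61-fold from 11.07 and 10.83 to 10.19, 10.30 and 10.31. UHRF1, which keeps DNA methylation through replication, fell 1.65-fold from 10.08 and 10.02 to 9.40, 9.16 and 9.43. In both, the groups did not overlap and the call held whichever array was left out. PCNA, the sliding clamp of DNA polymerases, fell 1.64-fold from 11.84 and 11.84 to 11.17, 10.97 and 11.23, and RRM2, a subunit of ribonucleotide reductase, fell 1.64-fold. Without vector replicate 2, PCNA and RRM2 lost their calls (adjusted p of 0.0621 and 0.126) and the list's count was 2, against 11 without overexpression replicate 1 and 6 in the A375 arrays alone.

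All 22 tested genes of G2 and mitosis were lower on average with FOXD1, with a median log2 change of -0.56, and in 18 of them every overexpression array was below both vector arrays, against 19.4% of all genes. The test called 6 of the 22, and 8 in the A375 arrays alone. AURKB, the kinase of the chromosomal passenger complex, fell 2.42-fold from 10.31 and 10.44 to 9.15, 9.45 and 8.70 (limma adjusted p = 0.00411). TPX2, which targets Aurora A to the spindle, fell 2.15-fold from 9.50 and 9.95 to 8.73, 8.71 and 8.43. MKI67, the proliferation antigen Ki-67, fell 1.47-fold from 7.31 and 7.52 to 6.84, 6.87 and 6.88. The groups did not overlap in these 3 genes, and the median of the list was -0.74 in overexpression replicate 3 and -0.41 in replicates 1 and 2. Without vector replicate 2 limma called 0 of the 22 (8 at an unadjusted p under 0.05), and AURKB, TPX2 and MKI67 had adjusted p-values of 0.0621, 0.0911 and 0.106. FOXM1, the forkhead factor of mitotic genes, was the only called gene of 16 tested forkhead factors. It fell 1.60-fold from 8.38 and 8.58 to 7.81, 7.74 and 7.86, a call lost without vector replicate 2 (adjusted p = 0.15). In such a bulk RNA, fewer cells in a phase of the cell cycle and less RNA per cell cannot be told apart. The RefSeq promoter of AURKB (chr17:8210176-8210475, minus strand) is shown with its CCAAT box in capitals, searched on both strands and found here as ATTGG.
AURKB: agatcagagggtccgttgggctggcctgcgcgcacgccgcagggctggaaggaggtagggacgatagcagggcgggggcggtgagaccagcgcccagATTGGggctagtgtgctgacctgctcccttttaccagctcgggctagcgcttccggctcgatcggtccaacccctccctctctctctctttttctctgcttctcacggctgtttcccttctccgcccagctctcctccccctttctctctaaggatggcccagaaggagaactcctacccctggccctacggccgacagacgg
All 4 called genes of the G2 list with a promoter sequence hold the CCAAT letters, as do 37.1% of the tested genes. The cell cycle homology region core TTTGAA, also searched, lies in 1 of these 4 and in 10.2% of the tested genes. It is absent from the AURKB window shown.

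Of 19 tested hypoxia and glycolysis genes, 9 fell and none rose, against 6.33% of all genes that fell, with a median log2 change of -0.34. BNIP3, a mitophagy receptor induced by hypoxia, fell 2.61-fold from 10.95 and 10.90 to 9.51, 9.38 and 9.74 (limma adjusted p = 0.000523). ALDOA, the glycolytic aldolase, fell 1.85-fold from 12.22 and 12.53 to 11.57, 11.64 and 11.25. LDHA, which turns pyruvate into lactate, fell 1.48-fold from 13.82 and 13.84 to 13.28, 13.27 and 13.25. The groups were well apart in all 3 genes, and the calls held whichever array was left out. The glucose transporters SLC2A3 and SLC2A1 fell 2.18-fold and 1.83-fold and lost their calls without vector replicate 2 (adjusted p of 0.201 and 0.0731), SLC2A1 also without vector replicate 1 (0.0736). The list's count was 3 without vector replicate 2 and 6 in the A375 arrays alone. The RefSeq promoter of BNIP3 (chr10:131981874-131982173, minus strand) carries the hypoxia response core ACGTG on both strands within 1 palindrome, in capitals.
BNIP3: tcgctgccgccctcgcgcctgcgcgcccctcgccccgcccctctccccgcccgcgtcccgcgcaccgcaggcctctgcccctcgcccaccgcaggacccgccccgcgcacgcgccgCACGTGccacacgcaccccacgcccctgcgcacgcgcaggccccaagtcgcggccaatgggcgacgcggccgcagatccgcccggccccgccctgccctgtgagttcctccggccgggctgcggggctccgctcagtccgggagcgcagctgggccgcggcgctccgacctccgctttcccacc
The core lies in 5 of the 8 called genes of the list with a promoter sequence, and in 26.3% of the tested genes.

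Of 17 p53 targets, 5 rose and none fell (median 0.25), against 6.75% of all genes that rose. Without overexpression replicate 3, 5 of the 17 rose and 2 fell. RRM2B, a p53-inducible ribonucleotide reductase subunit, rose 1.89-fold from 7.18 and 7.05 to 7.93, 8.14 and 8.02 (limma adjusted p = 7.64e-05). TP53INP1, a stress-induced p53 cofactor, rose 1.95-fold from 8.23 and 7.71 to 8.85, 8.92 and 9.03, and TNFRSF10B, the death receptor DR5, rose 1.68-fold from 10.17 and 10.01 to 10.95, 10.80 and 10.77. The 3 calls held whichever array was left out, and all 3 genes lie on chromosome 8, where 18% of all tested genes rose. CDKN1A, the cell cycle inhibitor p21, rose 1.54-fold from 12.17 and 11.73 to 12.59, 12.72 and 12.42, and CCNG1 1.38-fold. Both calls were lost without vector replicate 2 (adjusted p of 0.113 and 0.215), and that of CCNG1 also without overexpression replicate 2. Of 15 BCL2 family genes limma called 0, with 2 at an unadjusted p under 0.05, and 0 at either threshold in the A375 arrays alone.

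Further calls that held whichever array was left out came from other lists. Their counts stand against 6.75% of all genes that rose and 6.33% that fell. Of 15 heat shock genes 1 rose and none fell, and of 16 TGF-beta and BMP pathway genes 4 rose and none fell. Of 14 NF-kB feedback and cytokine genes 1 rose and none fell. Of 14 metallothionein and oxidant response genes 2 rose and 3 fell. CRYAB, a small heat shock protein, rose 3.31-fold from 7.72 and 7.62 to 9.47, 9.89 and 8.83, while no other of 15 heat shock genes was called. FST, the secreted activin antagonist follistatin, rose 3.03-fold from 8.49 and 8.49 to 9.84, 10.02 and 10.41 (limma adjusted p = 0.000638). CXCL8, the neutrophil chemokine, rose 1.91-fold from 8.35 and 8.47 to 9.10, 9.33 and 9.61. NQO1, a quinone reductase of the NRF2 programme, fell 1.43-fold from 13.05 and 13.01 to 12.49, 12.42 and 12.63. In each of these genes all overexpression arrays lay on one side of both vector arrays. Of 16 Wnt pathway genes 1 rose and 3 fell, against the same shares of all genes, and in the A375 arrays alone 1 rose and 2 fell. In the Wnt list, LEF1 and CTNNB1, a factor of the nuclear Wnt complex and beta-catenin, fell beside SFRP1 by 1.65-fold and 1.51-fold and lost their calls without vector replicate 2 (adjusted p of 0.241 and 0.291) and without overexpression replicate 2, CTNNB1 also without vector replicate 1 or overexpression replicate 3. In all, 129 genes of the 35 lists were called, and 29 of them whichever array was left out.

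**Figure D3:**
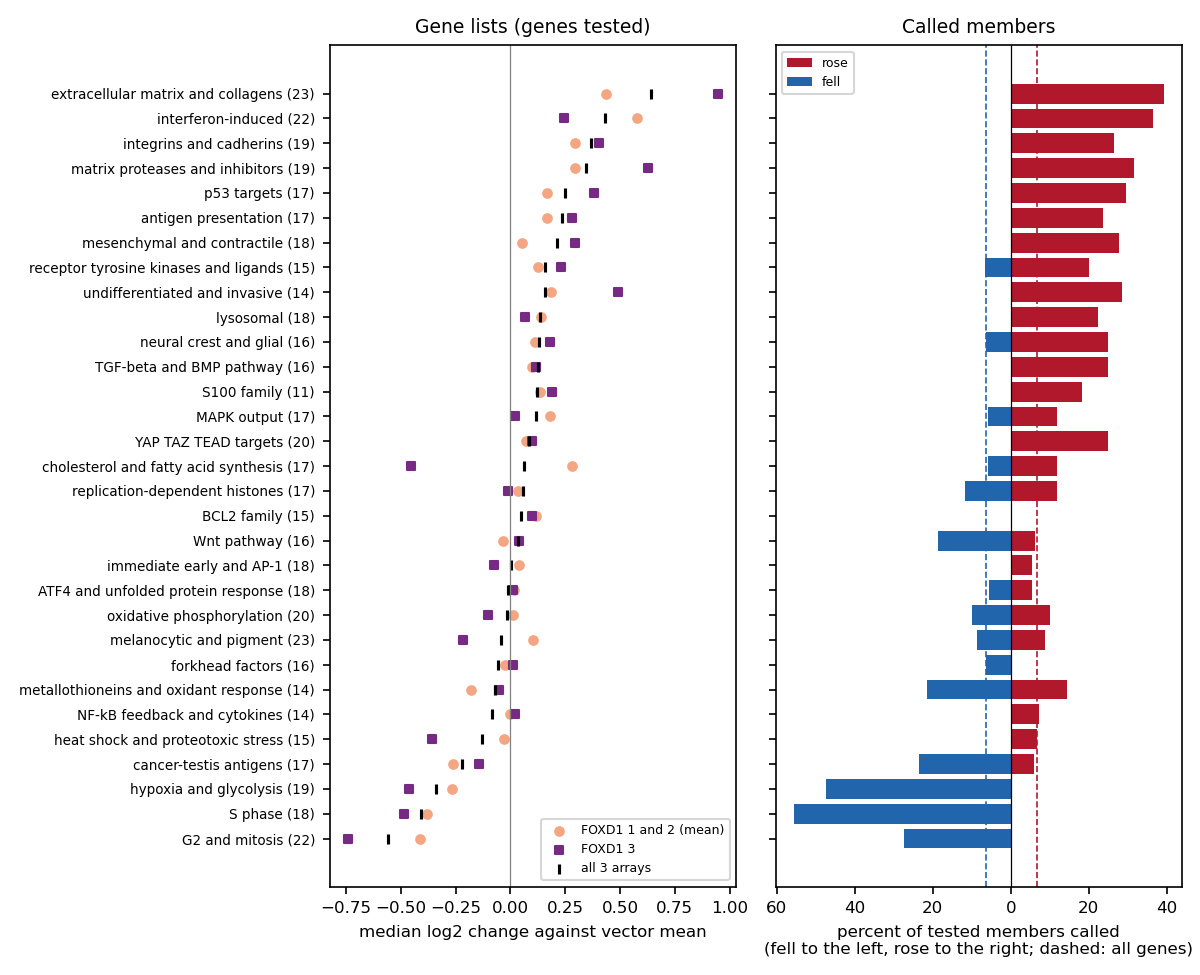
For each gene list with 10 or more tested genes (number in brackets), the left panel gives the median log2 change against the vector mean for overexpression replicates 1 and 2, for replicate 3 and for all 3 arrays, and the right panel the percentage of tested members that rose or fell, with the percentages over all genes dashed. Matrix genes and interferon-induced genes lie at the top, and hypoxia, S phase and mitosis genes at the bottom, on the same side of 0 in replicate 3 as in replicates 1 and 2.

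Overexpression replicate 3 differed from replicates 1 and 2 by more than 1 on the log2 scale in 179 genes, 65 higher (0.498% of 13056) and 114 lower (0.873%). Replicates 1 and 2 differed that much in 5 genes and the vector arrays in 16. Several melanocytic genes differed widely, chosen here after their values were seen. PMEL, the fibril protein of melanosomes, was read at 13.20 and 13.38 with vector, at 13.67 and 13.18 in overexpression replicates 1 and 2, and at 10.07 in replicate 3. MLANA stood at 8.57 and 7.93 with vector, at 10.43 and 10.45 in replicates 1 and 2, and at 8.84 in replicate 3. CITED1, a transcriptional coregulator of pigment cells, stood at 8.85 and 9.34 with vector, at 8.72 and 8.81 in replicates 1 and 2, and at 7.04 in replicate 3. TYRP1, a melanosomal enzyme, went the other way, at 8.20 and 8.39 with vector, at 7.52 and 7.58 in replicates 1 and 2, and at 8.56 in replicate 3. So PMEL and CITED1 were low on a single overexpression array, and the rise of MLANA was mostly that of the other two. TYR, at 13.66, 13.66 and 13.31, and SOX10 differed less between the replicates. SOX8, a neural crest factor, and APOE, an apolipoprotein made by melanocytic cells, were also lowest in replicate 3, at 7.81 and 11.56 against 9.37 and 9.46 and 13.14 and 13.13 in replicates 1 and 2.

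Among genes on which overexpression replicates 1 and 2 lay within 0.3 of each other, the 8 lowest in replicate 3 were PI15, LAD1, HSPA2, TSPAN7, IGFBP1, VAT1, EEF1A2 and PLA1A. PI15, a secreted protease inhibitor homologue, was read at 9.08 and 9.42 with vector, at 10.25 and 10.17 in replicates 1 and 2 and at 7.80 in replicate 3. LAD1, a basement membrane anchoring protein, was read at 8.80 and 8.63, at 9.12 and 8.82, and at 6.68 in the same order. IGFBP1, a binding protein of insulin-like growth factors, was read at 8.27 and 8.70, at 8.58 and 8.82, and at 6.74. Of these 8 genes, PLA1A was the only one called, since it was also lower in replicates 1 and 2, and it lost its call without vector replicate 2 (limma adjusted p = 0.228).

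The 8 highest in replicate 3 were SERTAD4, RCVRN, NPTX1, FLRT3, CSRP2, CCL2, SERTAD4-AS1 and ITGA11. SERTAD4 was read at 7.70 and 7.12 with vector, at 7.97 and 8.19 in replicates 1 and 2 and at 10.21 in replicate 3, and its antisense neighbour SERTAD4-AS1 at 7.48 and 7.21, at 7.64 and 7.53 and at 9.15. CCL2, a monocyte chemokine, was not above background with vector (6.42 and 6.55) and was read at 6.95, 6.69 and 8.61 with FOXD1. ITGA11, a collagen-binding integrin chain, was read at 6.60 and 6.64, at 7.40 and 7.60 and at 8.98. It and NPTX1, a neuronal pentraxin, were the called genes among the 8. Both lost their calls without vector replicate 2 (adjusted p of 0.0772 and 0.266), and NPTX1 also without vector replicate 1 or overexpression replicate 3. Leaving out replicate 3 kept 1348 of the 1708 calls and added 397 others. Matrix genes and undifferentiated-state genes were higher in replicate 3, with list medians of 0.95 and 0.49 over vector against 0.44 and 0.19 in replicates 1 and 2, and cholesterol and fatty acid synthesis genes were lower, with -0.46 against 0.28. No test was made of 1 array against 2 of its own group.

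**Figure D4:**
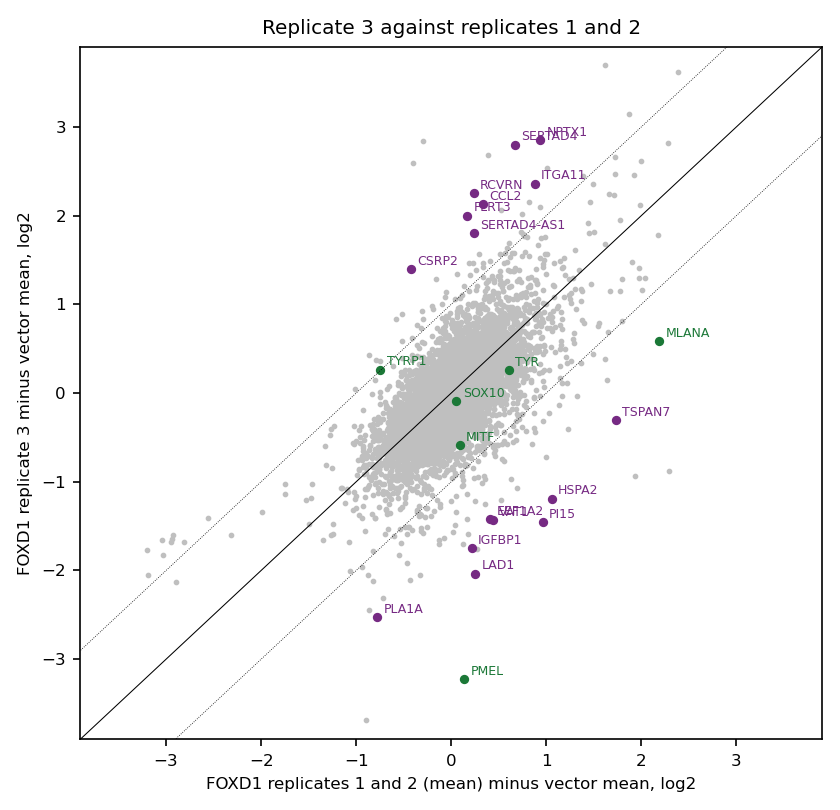
For each gene, the log2 difference of overexpression replicate 3 from the vector mean is plotted against that of the mean of replicates 1 and 2, with the line of equality and dotted lines at a gap of 1. The 16 named genes are in purple and melanocyte markers in green; PMEL lies near 0 for replicates 1 and 2 and far below 0 for replicate 3.

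Called genes were unevenly spread over the chromosomes, for the 13030 genes that RefSeq places. On chromosome 20, 65 of 358 genes fell (18.2%) and 9 rose (2.51%), and the median log2 change was -0.14. On chromosome 8, 85 of 473 rose (18%) and 17 fell (3.59%), with a median of 0.10. The chromosome 20 median was the lowest, while chromosomes 5, 8, 18 and 21 had nearly equal medians of 0.097, 0.098, 0.087 and 0.092. Over the same genes the chromosome medians of the WM266-4 silencing contrasts ran from -0.047 to 0.045 with siRNA 1 and from -0.017 to 0.030 with siRNA 2. The chromosome 20 median was -0.16, -0.15 and -0.12 in the 3 overexpression replicates, while the vector arrays differed there by 0.03.

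On chromosome 8 the rises were densest in 1 stretch, picked after its values were seen. From LINC00968 to COL14A1 in gene order, 53 of 156 tested genes rose (34.0%) and none fell, and 135 of 156 were higher on average with FOXD1. The median log2 difference from vector was 0.30, 0.32 and 0.18 in overexpression replicates 1, 2 and 3, and vector replicate 2 differed from replicate 1 there by -0.06. In the A375 arrays alone 21 of these genes rose and none fell, and on chromosome 20 there were 25 falls and 1 rise. In the last run of the chromosome, from PARP10 to C8orf33, none of 39 genes rose and 6 fell. Chromosomes 21, 5, 7 and 18 leaned upward too, with 15.7%, 12.6%, 11.1% and 10.6% of their genes rising and 6.72%, 2.3%, 2.58% and 2.23% falling. Without vector replicate 2, 17 genes fell and 1 rose on chromosome 20, and 19 rose and 2 fell on chromosome 8, with medians of -0.12 and 0.11. Of the called genes named above, PCNA, TPX2, CST1 and PYGB lie on chromosome 20, and MATN2, PLAT, MMP16, RRM2B, TP53INP1 and TNFRSF10B on chromosome 8. SFRP1, which fell, lies on chromosome 8 as well, and MX1, MX2, COL6A2 and COL18A1, which rose, on chromosome 21. With the chromosome 20 members left out, the median of the G2 and mitosis list was -0.46 (4 of 19 fell), and with the chromosome 8 members left out, that of the p53 targets was 0.20 (2 of 14 rose). Without the chromosome 21 members, 6 of 20 interferon-induced genes and 7 of 20 matrix genes rose. List members on chromosomes 5, 7 and 18 were not left out in this way. On chromosome 7, in a stretch from CROT to ST7-AS1 picked after its values were seen, 29 of 164 genes rose (17.7%) and 2 fell. Whether DNA copy number moved with these stretches was not tested.

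**Figure D5:**
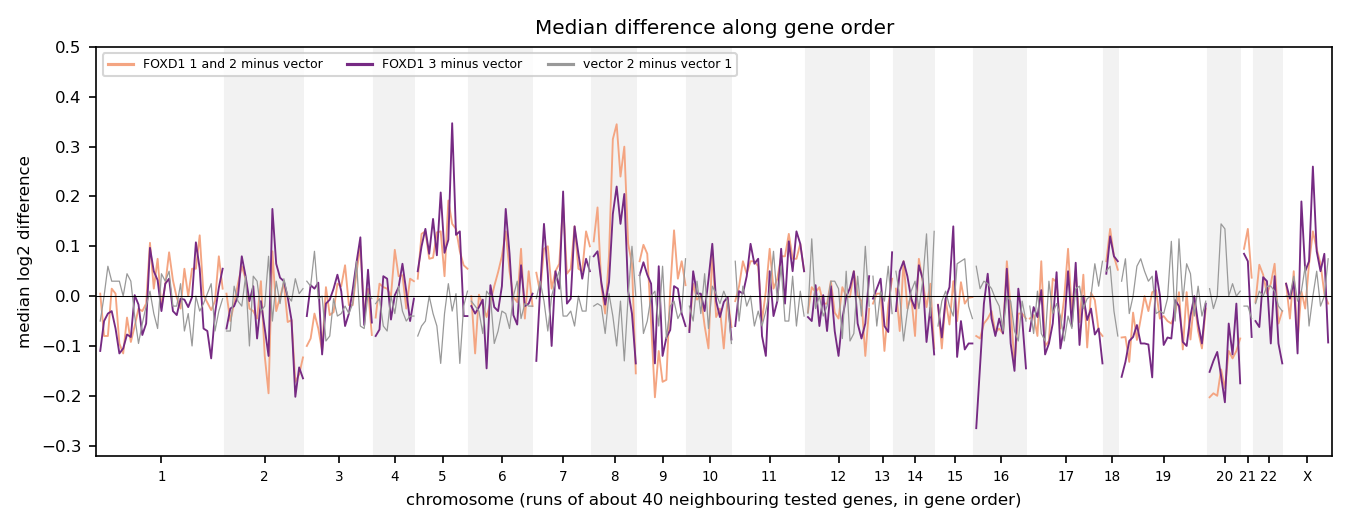
The median log2 difference is plotted for 322 runs of about 40 neighbouring tested genes in gene order, for overexpression replicates 1 and 2 (orange) and 3 (purple) against the vector mean, and for vector replicate 2 minus 1 (grey). The orange and purple lines rise together in the second part of chromosome 8 and stay below 0 along chromosome 20, where the grey line is at or above 0 in most runs.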

How the data were processed

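The submitters measured 14 samples on Illumina bead arrays. The authors' deposited log2 values were quantile normalized within each cell line without background subtraction, as the values show (sorted columns of a line differ by at most 0.01), so folds of dim genes are compressed. The deposited intensity table was not used as the main source, because its column for vector replicate 1 equals that of overexpression replicate 3 within 1% for 100% of probes. The deposited detection p-value columns set the filter. No software is named in the sources used.

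Of 48107 probes, 10 with missing values were left out, and 30107 of the rest have 1 gene symbol in the platform annotation. Of these, 30074 matched RefSeq (GRCh38.p14) by gene identifier. The probe with the highest mean stood for its gene. Of 578 called genes with another tested probe, 104 had one of opposite sign and 1 was called the opposite way.

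limma 3.58.1 (R 4.3.3; lmFit, eBayes) was fitted to all 14 arrays in 5 groups, with Benjamini-Hochberg adjustment over 13056 genes. Its SE uses the spread of both cell lines, so the A375-only fit is given beside it. The median SD over genes was 0.131 with overexpression, 0.099 with vector and 0.099 to 0.111 in the WM266-4 groups. On simulated data with 200 changed genes of 13056, limma recovered 52% of genes changed by 0.5 and 93% of those changed by 1. There were 7 false calls. These rates describe the simulated data alone. They may be too favourable for the real arrays, where overexpression replicate 3 stood apart and the overexpression SD was wider. In the real arrays runs of neighbouring genes also shifted together. Genes were named by rule (FOXD1, CCN2, the 15 highest and lowest calls without overlap between groups, called list members, and the genes farthest off in overexpression replicate 3). The members and lists were chosen with earlier results of these data known. Alternatives covered background correction, detection filter, probe choice, moderation, array weights, replicate block and leaving out each array. The small number of arrays limits the precision.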

Additional observations from a re-analysis of the deposited data

How the results depend on the processing

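Against 1708 called genes, the fit of the A375 arrays alone gave 562, the replicate number as a block 2751, and the deposited intensities with the copied vector column 0 (116 at an unadjusted p under 0.05). Vector has no replicate 3, so the block took up overexpression replicate 3 and its contrast rested on replicates 1 and 2. Leaving out 1 array gave 390 to 1745, lowest without vector replicate 2, and leaving out 1 array of the A375 arrays alone, added after seeing the data, gave 275 without overexpression replicate 1, 1570 without overexpression replicate 3, and 0 by limma without vector replicate 1, vector replicate 2 or overexpression replicate 2 (2312, 1534 and 2200 at an unadjusted p under 0.05). The called list members, 129, became 72, 197 and 0 under the first 3 of these settings, and 34 to 134 when 1 array was left out. With the copied column CCN2 changed by 0.86 and was not called (adjusted p = 0.999). CCN2 otherwise changed by 1.63 to 2.61 under the settings that named no array to leave out, the block among them, and by 1.73 to 2.27 when 1 array was left out. FOXD1 changed by 0.24 to 0.39 when 1 array was left out. Deviations of same-numbered arrays correlated at -0.032 and 0.062. The 2 vector deviations mirror each other, and those of overexpression were taken from a mean that includes replicate 3. These values cannot decide whether replicate numbers pair the arrays. Normexp background correction gave 1287 calls, and raised the genes by which overexpression replicate 3 stood apart from 179 to 502 (197 higher, 305 lower); either of replicates 1 and 2 alone as the comparison gave 163 to 220. Normexp widened folds, with CCN2 at 6.09-fold. Of 160 other named genes, 107 lost their call without vector replicate 2, 66 in the A375 arrays alone, 34 under normexp and 160 with the copied column; no sign turned. The cause of these shifts was not tested.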
